A study of Mus musculus with 21 samples.

Results

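The myosin heavy chain genes Myh6, Myh7 and Myh7b, the myosin light chain genes Myl2, Myl3, Myl4 and Myl7, and Mybpc3, which encodes cardiac myosin-binding protein C, were followed in left ventricle of mice under pressure overload. The 8 genes were found by symbol among the 24054 rows of the expression table, and each matched 1 row. Libraries came from 6 mice with transverse aortic constriction (TAC) given the PDE9A inhibitor PF-04449613, 5 mice with TAC given the PDE5A inhibitor sildenafil, 5 mice with TAC and no drug, and 5 mice with sham surgery and no drug. All animals were C57BL/6J, with no transgene or deletion named in the labels, and every library came from 1 animal with its own ear tag. TAC narrows the aorta, so that the left ventricle pumps against a higher pressure. Drugs were given for 4 weeks and started 1 week after surgery. The sources used here do not give age, sex, dose or vehicle.

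Myosin is the motor of the thick filament: a pair of heavy chains carries the ATPase heads, and each heavy chain binds 1 essential and 1 regulatory light chain. In the mouse, the adult ventricle uses mainly the fast alpha heavy chain (Myh6), the fetal ventricle uses the slower beta heavy chain (Myh7), and a return of Myh7 is a classical sign of a ventricle under load. Myl2 and Myl3 are the ventricular regulatory and essential light chains, Myl7 and Myl4 are their atrial counterparts, and Mybpc3 ties myosin heads to the filament backbone. PDE5A and PDE9A break down cyclic GMP, and the drugs inhibit them.

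The heavy chain isoforms are close copies, which matters for how their reads are told apart. The coding sequences of Myh6 and Myh7 were identical at 91.8% of 5800 aligned bases, and 23.9% of the 50-base words of Myh7 also occur in Myh6. For 100-base words that share was 12.0%. No 50-base word was shared between Myh7b and either of them, between Myl2 and Myl7, or between Myl3 and Myl4. The expected counts divide reads that fit more than 1 gene by a model, so a small number of Myh7 counts in a heart with very much Myh6 is less certain than a large one. The 60-base stretch in which the 2 coding sequences differ most is shown because it is where short reads separate the isoforms best. Capitals mark its 27 differing bases. The stretch is read on the minus strand of chromosome 14 (GRCm38), at coding positions 3220 to 3279 in Myh7 and 3226 to 3285 in Myh6, and spans exon junctions where the genomic distance exceeds its length.
Myh7: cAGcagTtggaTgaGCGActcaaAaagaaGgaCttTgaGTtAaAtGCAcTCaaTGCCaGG
Myh6: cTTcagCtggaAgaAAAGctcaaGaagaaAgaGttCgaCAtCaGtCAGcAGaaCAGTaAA

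Myh6 (chromosome 14, 54941921 to 54966927) and Myh7 (chromosome 14, 54970684 to 54994626) lie head to tail on the minus strand, with 3756 bases between them. The antisense RNA gene Mhrt (54968678 to 54974349, plus strand) overlaps 3666 bases of Myh7. The sources used here do not say whether the authors counted reads by strand, so Myh7 reads from that overlap cannot be told apart from Mhrt reads. Each of the 3 heavy chain genes also carries a muscle microRNA in an intron on its own strand. These microRNAs are shown because the pair from Myh6 and Myh7 share the seed UAAGACG (bases 2 to 8, in capitals), while the one from Myh7b has the seed UAAGACU. The sequences are from RefSeq on GRCm38.p6.
miR-208a-3p (intron of Myh6): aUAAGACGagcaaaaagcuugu
miR-208b-3p (intron of Myh7): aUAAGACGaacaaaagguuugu
miR-499-5p (intron of Myh7b): uUAAGACUugcagugauguuu
The rows of Mir208a, Mir208b and Mir499 were at 0 counts in all 21 libraries, so the microRNAs could not be compared with their host genes.

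The sequence just upstream of the RefSeq start sites of Myh7 and Myh6 is shown because these genes moved in opposite directions under TAC. The RefSeq start site of Myh6, 54966607, lies inside the Myh6 span given above, which comes from another annotation. The printed Myh6 run therefore also lies inside that span. Both runs are from RefSeq on GRCm38.p6, minus strand, and are printed 5′ to 3′ up to the start site or the first annotated exon base. Capitals mark the MCAT element GGAATG, the letters bound by TEAD factors. It was searched on both strands, as GGAATG and CATTCC.
Myh7, chr14:54994627-54994876: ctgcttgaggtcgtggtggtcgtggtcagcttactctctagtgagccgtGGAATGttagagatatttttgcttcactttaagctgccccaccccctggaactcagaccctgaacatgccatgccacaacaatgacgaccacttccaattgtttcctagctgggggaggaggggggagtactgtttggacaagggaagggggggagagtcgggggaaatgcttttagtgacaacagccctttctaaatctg
Myh6, chr14:54966642-54966857: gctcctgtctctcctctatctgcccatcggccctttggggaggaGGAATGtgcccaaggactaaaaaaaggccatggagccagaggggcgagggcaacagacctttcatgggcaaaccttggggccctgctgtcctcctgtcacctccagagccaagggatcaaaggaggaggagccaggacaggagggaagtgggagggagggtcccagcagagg
MCAT letters were present in both printed runs, in at least 1 window of 4 of the 8 genes, and in 12.6% of all 32851 promoter windows of 250 bases. The window of a second Myh7 start site (54994550 to 54994799) held none. Other motifs were searched in the same windows. GATA core, TATA core and CArG letters were present in 5, 1 and 2 of the 8 genes. Over all windows their shares were 22.6%, 12.4% and 1.47%. Myh7 and Myl2 have 2 windows each, so the count of genes and the share of windows are not the same measure. The presence of these letters is a description of the sequence and does not show that a factor binds there.

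Libraries held between 22.7 and 41.0 M expected counts (1 M is 1000000), of which the 8 genes took between 4.02% and 6.39%. Levels below are CPM, counts per 1000000 counts of a library, after TMM scaling between libraries. Fold changes and adjusted p-values are from edgeR's quasi-likelihood test with Benjamini-Hochberg adjustment over 14135 genes, with calls made at an adjusted p under 0.05. Of the 8 genes, 7 had enough counts for that test, and Myl7 did not. PDE9A inhibitor hearts 1 and 4 had the highest share of counts from the ribosomal RNA precursor Rn45s, 0.326% and 0.416%, against 0.192 to 0.278% in the other libraries, and results were also computed without both. Tissue identity was read from marker sums. The summed CPM of 8 cardiomyocyte markers lay between 95817 and 148752 in all libraries, and that of 8 skeletal muscle markers lay between 1.11 and 2.66. In whole ventricle, fewer cells of a type and less RNA per cell cannot be told apart. Fibroblast markers moved with surgery: all 5 fibroblast and all 5 activated-fibroblast markers were called higher in TAC against sham, while 5 of 8 cardiomyocyte markers were called lower. Over all 14135 tested genes, 12.2% were called higher and 13.0% lower in that comparison. The part of this shift in the myosin values was not tested.

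Beta heavy chain rose in every constricted group and alpha heavy chain fell in TAC and in TAC with sildenafil. In TAC hearts Myh7 stood at 6046, 2783, 8670, 7648 and 3577 CPM, against 199, 326, 257, 198 and 240 CPM in sham hearts. All 5 TAC hearts were above all 5 sham hearts. Its log2 fold change was 4.56 (SE 0.86, adjusted p = 0.00312). Myh6 stood at 26188, 38230, 23561, 16692 and 32603 CPM in TAC hearts, against 47905, 44193, 42256, 48842 and 43139 CPM in sham hearts. Every TAC heart was below every sham heart. Myh6 had a log2 fold change of -0.72 (SE 0.19, adjusted p = 0.0111).

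In TAC against sham 25.2% of all tested genes were called, 12.2% higher and 13.0% lower. Of the 7 myosin genes tested 1 was called higher and 1 lower, so the count by itself is near the background. Groups without overlap in CPM made up 8.52% of all genes on the higher side and 8% on the lower side. The rise of Myh7 and the fall of Myh6 were called with each of the 10 libraries left out in turn, with adjusted p-values of edgeR's quasi-likelihood test of at most 0.0106 and 0.0375. Ear tag numbers fall into a 100, a 500 and a 600 series, and the labels do not say what a series stands for. Within the 100 series the log2 difference for Myh7, TAC minus sham, was 4.01 (2 against 3 libraries), and within the 600 series it was 4.58 (2 against 2). For Myh6 the differences were -0.50 and -0.98.

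**Figure D1:**
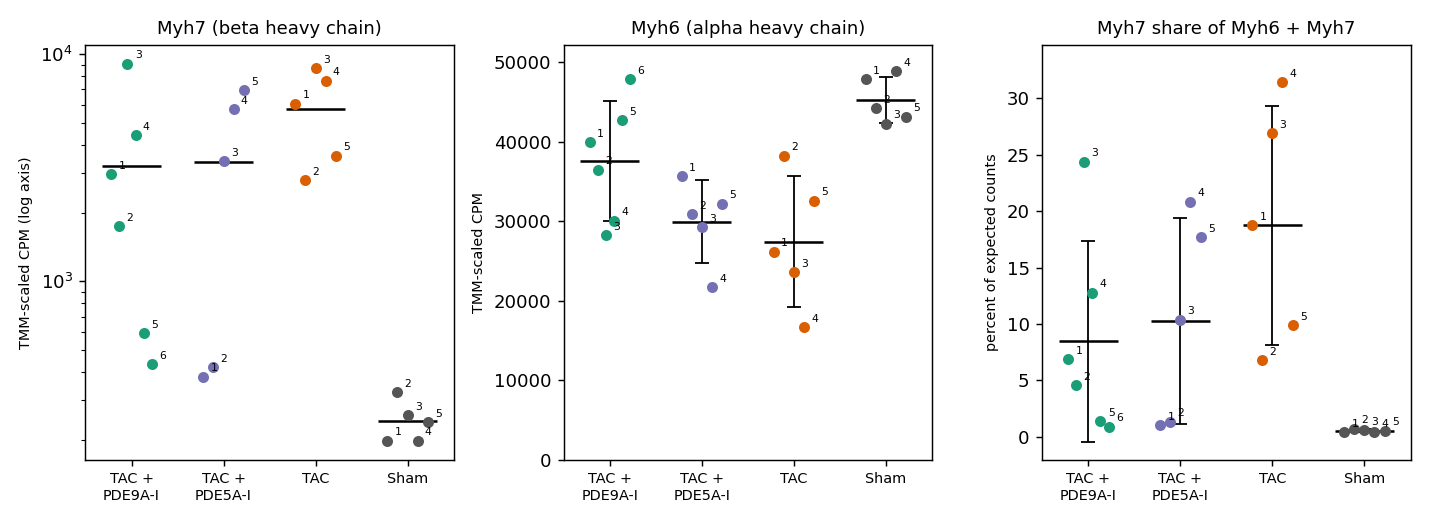
Myh7 (log axis) and Myh6 in TMM-scaled CPM, and the Myh7 percentage of Myh6 plus Myh7 expected counts, by group. Each point is 1 heart with its replicate number, horizontal lines are group means and error bars, on the linear panels, are SD (n = 6, 5, 5 and 5 from left to right). Sham hearts lie between 0.404% and 0.731%, and constricted hearts spread from 0.893% to 31.4%.

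The share of beta in the alpha and beta heavy chain counts needs no scaling between libraries. It was 18.8, 6.78, 26.9, 31.4 and 9.89% in TAC hearts, against 0.413, 0.731, 0.605, 0.404 and 0.553% in sham hearts. The lowest TAC heart was thus well above the highest sham heart. The mean share was 18.7 ± 10.6% in TAC and 0.541 ± 0.137% in sham (SD, n = 5 each), a difference of 18.2 percentage points. The two-sided exact permutation test gave p = 0.00794, the smallest value that 5 against 5 allows, and 0.0238 after adjustment over the 6 comparisons. The sum of alpha and beta was 33200 ± 6129 CPM in TAC and 45511 ± 2902 CPM in sham (SD, n = 5 each), and the highest TAC heart, at 41013 CPM, was below the lowest sham heart, at 42513 CPM.

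The counting error of a share was small beside the spread between hearts. In the PDE9A inhibitor heart with the lowest share, 0.893%, the Wilson 95% interval was 0.876 to 0.911%. In the TAC heart with the highest share, 31.4%, it was 31.3 to 31.5%. These intervals cover counting error only, and the reads carry no molecular identifiers. Within ear tag series the pooled difference between TAC and sham was 15.8 percentage points, with p = 0.0167 in an exact permutation within series and 0.100 after adjustment. The unadjusted value is the smallest that the 60 permutations within series allow. Leaving out any 1 sham heart moved the difference by less than 0.1 percentage points and raised the adjusted p of the exact permutation test to 0.133. The groups still did not overlap, but with unequal group sizes some permutations give a larger difference in means than the observed one. The rise in p therefore does not show that the difference rests on 1 sham heart.

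Neither inhibitor group separated from TAC in its heavy chains. With the PDE5A inhibitor, Myh7 stood at 380, 420, 3386, 5714 and 6931 CPM, against the TAC values above of 2783 to 8670 CPM. Hearts 1 and 2 were below every TAC heart, and the other 3 lay within the TAC range. Against TAC this gave a log2 fold change of -0.77 (SE 0.75, 95% interval -2.34 to 0.79, adjusted p = 0.962). Myh6 was 35663, 30924, 29266, 21683 and 32204 CPM with the PDE5A inhibitor, and all 5 values lay within the TAC range. Its log2 fold change was 0.13 (SE 0.19, adjusted p = 0.964).

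With the PDE9A inhibitor, Myh7 had its lowest value at 432 CPM, its median at 2351 CPM and its highest at 9100 CPM. Of the 6 hearts, 3 were below every TAC heart and 1 was above every TAC heart. Against TAC this gave a log2 fold change of -0.84 (SE 0.71, 95% interval -2.33 to 0.64, adjusted p = 0.603). Myh6 ranged from 28237 to 47896 CPM with a median of 38223 CPM, and 3 of the 6 hearts were above every TAC heart. Its log2 fold change was 0.45 (SE 0.18, 95% interval 0.08 to 0.83), with an unadjusted p of 0.0198 and an adjusted p of 0.282.

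The background in these comparisons was near 0. Only 2 of 14135 genes, 0.0141%, were called for the PDE5A inhibitor with TAC against TAC, and 1, or 0.00707%, for the PDE9A inhibitor with TAC against TAC. None of the 7 myosin genes tested was among them. By unadjusted p under 0.05 the genes numbered 731 and 2061, and DESeq2 called 9 and 28. Both comparisons use the same 5 TAC libraries. Between the inhibitors, PDE9A against PDE5A, 1 gene (0.00707%) was called and it was no myosin gene. There the log2 fold change of Myh7 was -0.07 (95% interval -1.56 to 1.42) and that of Myh6 was 0.33 (95% interval -0.05 to 0.70). The interval for Myh7 holds differences of more than 1 on the log2 scale in either direction, so these data do not show that the drugs act alike on it.

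For Myh7 the fold range was wider among inhibitor hearts: the highest Myh7 level was 21.1 times the lowest with the PDE9A inhibitor, 18.2 times with the PDE5A inhibitor, 3.12 times in TAC and 1.64 times in sham. For Myh6 this ratio was 1.70 with the PDE9A inhibitor, 1.64 with the PDE5A inhibitor, 2.29 in TAC and 1.16 in sham, so the wider range was not shared by the alpha chain. The beta share was 1.05, 1.34, 10.4, 20.9 and 17.7% with the PDE5A inhibitor. With the PDE9A inhibitor its lowest value was 0.893%, its median 5.73% and its highest 24.4%. Group means were 8.47 ± 8.91% (SD, n = 6) for PDE9A and 10.3 ± 9.11% (SD, n = 5) for PDE5A, against 18.7% for TAC. The exact permutation test gave p = 0.117 (adjusted 0.175) for PDE9A minus TAC, a difference of -10.3 percentage points, and p = 0.222 (adjusted 0.267) for PDE5A minus TAC, a difference of -8.48. PDE9A minus PDE5A was -1.79 percentage points (exact permutation p = 0.749), and this sign turned within ear tag series, to 0.575. Pooled within series, PDE9A minus TAC was -14.1 percentage points (unadjusted exact permutation p = 0.0889) and PDE5A minus TAC was -12.0 (unadjusted exact permutation p = 0.200). The 500 series held only 1 TAC heart.

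**Figure D2:**
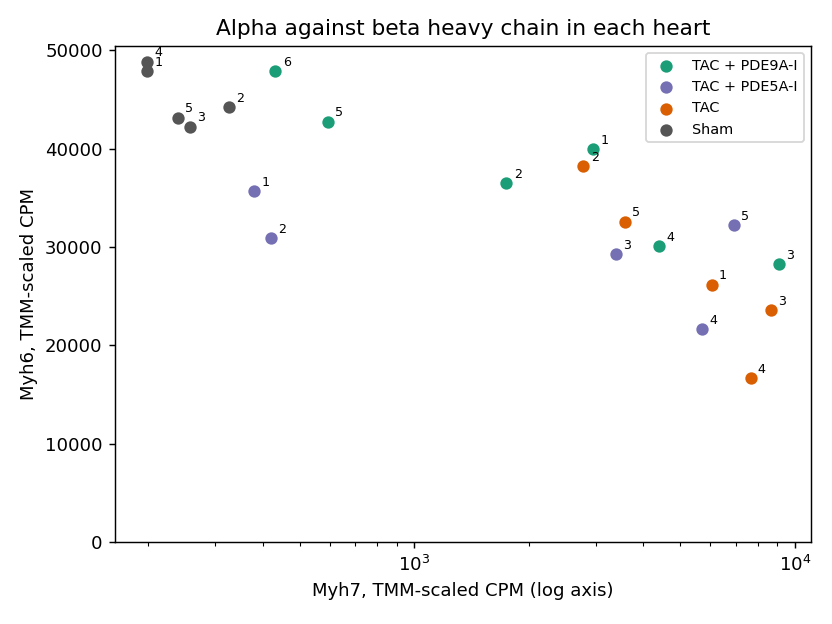
Myh6 against Myh7 in each heart, both in TMM-scaled CPM, Myh7 on a log axis, with the replicate number beside each point. Sham hearts sit at upper left. PDE5A inhibitor hearts 1 and 2 and PDE9A inhibitor hearts 5 and 6 lie between 380 and 592 on the Myh7 axis, to the left of all other constricted hearts.

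Among the 16 constricted hearts, the 4 with the least Myh7 all had an inhibitor: PDE5A inhibitor hearts 1 and 2 and PDE9A inhibitor hearts 5 and 6, at 380 to 592 CPM. The next constricted heart stood at 1747 CPM. All 4 stayed above the highest sham heart, at 326 CPM. Myh6 did not follow this order exactly, since PDE9A inhibitor hearts 6 and 5 had the highest Myh6 of the constricted hearts (47896 and 42743 CPM), while PDE5A inhibitor hearts 1 and 2 (35663 and 30924 CPM) ranked at places 6 and 9 of 16. The low PDE5A inhibitor hearts both carry ear tags of the 500 series, and the 3 hearts of that group with tags in the 600 series held 10.4 to 20.9% beta. With the PDE9A inhibitor, the 4 hearts of the 500 series ran from 1.37 to 24.4%, and the 1 heart of the 600 series had the lowest share of all constricted hearts, 0.893%. The part of the ear tag series in these values was not tested apart from the within-series differences given here.

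Against sham, both inhibitor groups had more Myh7. The rise was 3.79 on the log2 scale with the PDE5A inhibitor (SE 0.83, adjusted p = 0.00996 in edgeR's quasi-likelihood test) and 3.72 with the PDE9A inhibitor (SE 0.82, adjusted p = 0.0273). All 5 and all 6 hearts lay above every sham heart. Myh6 fell with the PDE5A inhibitor by 0.60 on the log2 scale (SE 0.19, adjusted p = 0.0389), with all 5 hearts below every sham heart. With the PDE9A inhibitor the log2 fold change of Myh6 was -0.27 (SE 0.18, adjusted p = 0.332), and 2 of 6 hearts lay within the sham range. In these comparisons 14.6% of all genes were called for PDE5A, 6.81% higher and 7.80% lower, and 3.82% for PDE9A, 2.17% higher and 1.65% lower. Of the 7 myosin genes tested, 2 were called with PDE5A (Myh7 and Myh6) and 1 with PDE9A (Myh7). Genes without overlap made up 6.81% on the higher side and 8.75% on the lower side for PDE5A, and 1.61% and 1.87% for PDE9A.

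Some alternatives ended these calls against sham. When the edgeR model also held the ear tag series, Myh7 stood at 3.59 (adjusted p = 0.0788) for PDE5A and 3.87 (adjusted p = 0.0962) for PDE9A, and Myh6 at -0.48 (adjusted p = 0.207) for PDE5A, so all 3 calls ended while the direction held. The Myh7 call for PDE9A also ended without sham heart 1, 2, 3 or 4 or PDE9A inhibitor heart 3 or 4, with adjusted p-values up to 0.0732, when only the PDE9A inhibitor and sham libraries were fitted (3.72, adjusted p = 0.0752), and without PDE9A inhibitor hearts 1 and 4 together (3.61, adjusted p = 0.113). The Myh6 call for PDE5A ended without sham heart 1, 2, 3 or 4 or PDE5A inhibitor heart 3, 4 or 5, with adjusted p-values up to 0.124. The beta share differed from sham by 9.72 percentage points with PDE5A (exact permutation p = 0.00794, adjusted 0.0238) and by 7.93 with PDE9A (exact permutation p = 0.0238, adjusted 0.0476). Within ear tag series these differences were 15.8 and 3.53 percentage points, and the adjusted exact permutation p was 0.150 for both. Unadjusted, these exact permutations gave p = 0.100 and 0.0833, the smallest values that 10 and 12 permutations allow. They could therefore not reach 0.05 whatever the data, and they draw no line between a kept and a lost difference. Leaving out any 1 sham heart raised the adjusted exact permutation p to 0.133 for both drugs. All hearts of both drug groups still lay above the sham hearts left. With fewer sham hearts, some permutations give a larger difference in means than the observed one. The rise in p therefore does not show that the difference rests on 1 sham heart.

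Myh7b, a further sarcomeric heavy chain gene best known as the host of miR-499, was expressed at a low level and was called in no comparison. It stood at 36.6, 37.1, 21.2, 14.4 and 39.3 CPM in TAC hearts, against 31.4, 28.9, 37.2, 33.3 and 43.1 CPM in sham hearts. TAC hearts 3 and 4, which held the largest beta shares, were below every sham heart, and the other 3 lay within the sham range. For TAC over sham its log2 fold change was -0.23 (SE 0.23, adjusted p = 0.481 in edgeR's quasi-likelihood test). With the PDE5A inhibitor it was 40.2, 56.1, 43.1, 30.4 and 46.2 CPM, and 4 of these 5 hearts were above every TAC heart. The log2 fold change against TAC was 0.54 (SE 0.23), with an unadjusted p of 0.0283 and an adjusted p of 0.947. With the PDE9A inhibitor Myh7b ranged from 30.6 to 55.1 CPM with a median of 37.9 CPM.

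The ventricular light chains had lower values in most constricted hearts but passed the test in no comparison. Myl2, the regulatory light chain, was 6501, 8659, 5513, 4760 and 7510 CPM in TAC hearts, against 9596, 8254, 8843, 8788 and 7988 CPM in sham hearts. TAC heart 2 lay within the sham range and the other 4 were below it. The log2 fold change was -0.40 (SE 0.15, 95% interval -0.70 to -0.10), and the adjusted p of edgeR's quasi-likelihood test was 0.0501, just outside the threshold. DESeq2 gave -0.40 with an adjusted p of 0.0271, and leaving out TAC heart 2 or 5 also brought Myl2 past the threshold. It was not past the threshold without any 1 of the other TAC or sham hearts. Leaving out an inhibitor heart was not run for this comparison.

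Myl3, the essential light chain, was 3607, 4275, 2871, 2547 and 3750 CPM in TAC hearts, against 4807, 4042, 4291, 4314 and 3837 CPM in sham hearts. Again TAC heart 2 lay within the sham range and the other 4 were below it. The log2 fold change was -0.32 (SE 0.14, adjusted p = 0.0907 in edgeR's quasi-likelihood test). Without TAC heart 2 Myl3 was past the threshold, with an adjusted p of 0.0303. In the 600 series the log2 differences between TAC and sham were -0.49 for Myl2 and -0.40 for Myl3, and in the 100 series -0.24 and -0.15.

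With the inhibitors the ventricular light chains stayed within or near the TAC range. Myl2 was 6497, 6830, 5813, 5690 and 7941 CPM and Myl3 was 3370, 3635, 3343, 3276 and 3735 CPM with the PDE5A inhibitor, all within the TAC range. All 5 hearts of that group were below every sham heart for both genes. Against sham the log2 fold changes were -0.41 for Myl2 (SE 0.15, adjusted p = 0.0636 in edgeR's quasi-likelihood test) and -0.29 for Myl3 (SE 0.14, adjusted p = 0.145). Fitted on only the PDE5A inhibitor and sham libraries, both passed, at adjusted p-values of 0.0122 and 0.0155.

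In PDE9A inhibitor hearts Myl2 ranged from 5839 to 8894 CPM with a median of 8003 CPM, and 1 of 6 hearts was above every TAC heart. Myl3 ranged from 2809 to 4530 CPM with a median of 3693 CPM, and 2 of 6 hearts were above every TAC heart. Against TAC the log2 fold changes were 0.20 (SE 0.14) for Myl2 and 0.11 (SE 0.13) for Myl3. Against sham they were -0.20 and -0.21, with adjusted p-values of 0.368 and 0.315 in edgeR's quasi-likelihood test. In both cases 3 of 6 hearts were below every sham heart.

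**Figure D3:**
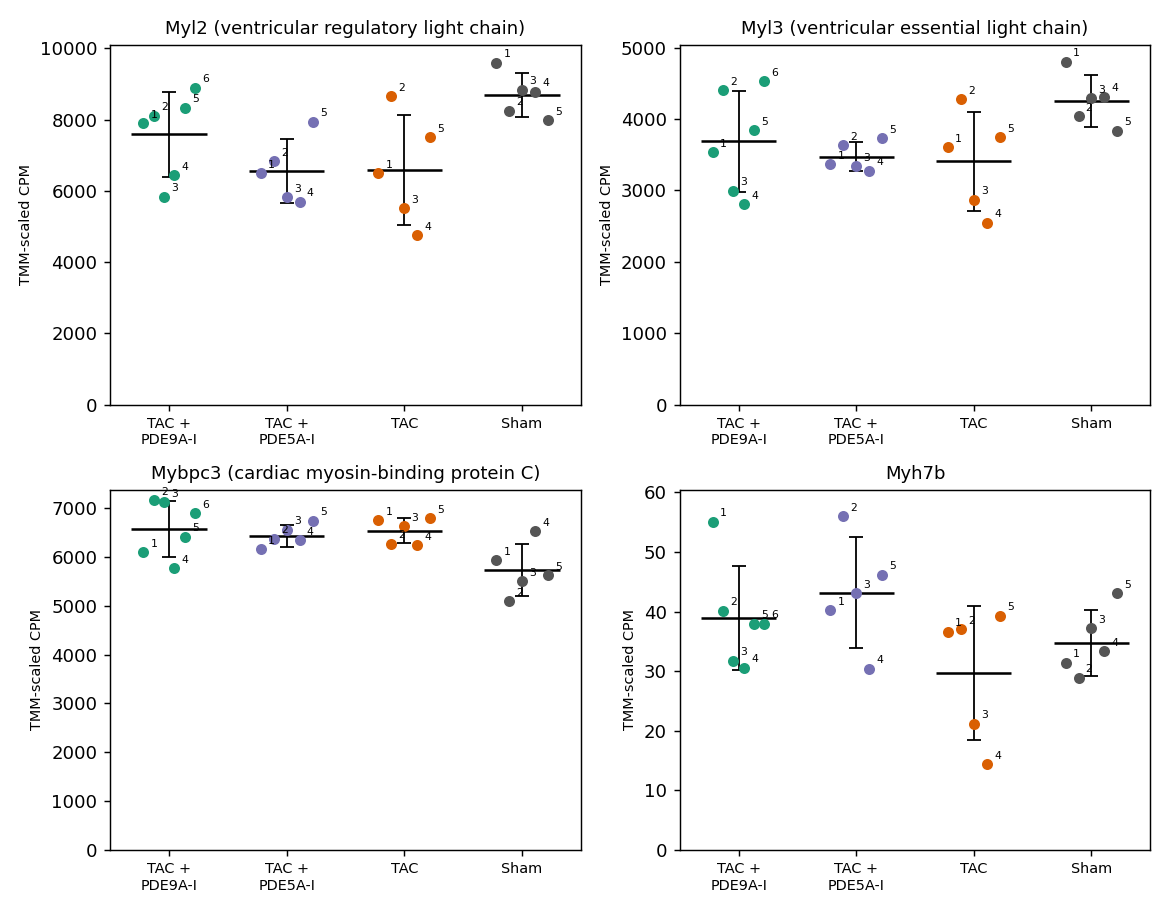
Myl2, Myl3, Mybpc3 and Myh7b in TMM-scaled CPM by group, each point 1 heart with its replicate number, lines and bars the mean and SD (n = 6, 5, 5 and 5 from left to right). Mybpc3 stays between 5100 and 7161 in all hearts, while Myl2 and Myl3 reach lower values in TAC, down to 4760 and 2547.

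Mybpc3 stayed between 5100 and 7161 CPM over all 21 hearts. It was 6760, 6278, 6634, 6249 and 6794 CPM in TAC hearts, against 5932, 5100, 5504, 6531 and 5634 CPM in sham hearts. TAC hearts 1, 3 and 5 were above every sham heart and the other 2 lay within the sham range. The log2 fold change was 0.19 (SE 0.08, 95% interval 0.02 to 0.35), and the adjusted p of edgeR's quasi-likelihood test was 0.0833. DESeq2 gave an adjusted p of 0.0250, upper-quartile scaling 0.0455, and leaving out sham heart 4 gave 0.0486. Against TAC the log2 fold change was -0.02 (95% interval -0.19 to 0.14) with the PDE5A inhibitor and 0.01 (95% interval -0.15 to 0.17) with the PDE9A inhibitor.

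The ratio of Mybpc3 to heavy chain counts differed between hearts. There were 203 ± 37.6 Mybpc3 counts per 1000 alpha and beta heavy chain counts in TAC hearts and 126 ± 7.36 in sham hearts (SD, n = 5 each). The ratio was 163 ± 22.1 (n = 6) with the PDE9A inhibitor and 196 ± 25.2 (n = 5) with the PDE5A inhibitor. The lowest TAC heart stood at 153 and the highest sham heart at 133. This ratio was not tested.

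The atrial light chains were low in all hearts, and both stood apart in 1. Myl7, the atrial regulatory light chain, had 335 counts (11.9 CPM) in PDE9A inhibitor heart 1 and between 0 and 13 counts in each of the other 20 libraries. Myl4, the atrial essential light chain, which is also used by the fetal ventricle, had 372 counts (13.2 CPM) in the same heart and between 21 and 84 counts elsewhere. Sln, the gene of sarcolipin, which inhibits the calcium pump of atrial muscle, had 68 counts there and between 0 and 5 in every other library. Bmp10, another gene of atrial muscle, was at 0 counts in that heart. Kcnj3, Stard10 and Dkk3, also chosen as atrial markers, had 1114, 247 and 881 counts in it, inside the range of the other 20 libraries. The part of atrial tissue in these values was not tested.

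**Figure D4:**
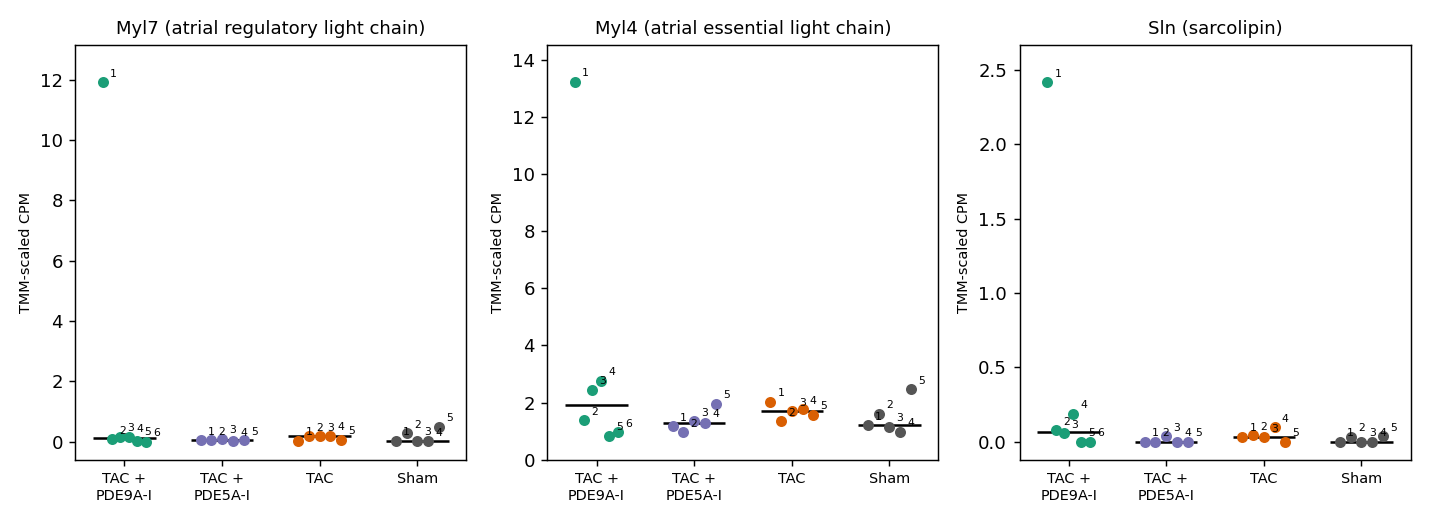
Myl7, Myl4 and Sln in TMM-scaled CPM by group, each point 1 heart with its replicate number and each line the group's median (n = 6, 5, 5 and 5 from left to right). PDE9A inhibitor heart 1 stands alone, at 11.9 for Myl7 and 13.2 for Myl4.

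That heart sets what the fit gives for Myl4. The log2 fold change of Myl4 for the PDE9A inhibitor was 1.10 against TAC (SE 0.54, adjusted p = 0.351 in edgeR's quasi-likelihood test) and 1.29 against sham (SE 0.55, adjusted p = 0.139). Without that heart they were 0.01 and 0.20. In the other groups Myl4 was 1.35 ± 0.374 CPM with the PDE5A inhibitor, 1.68 ± 0.251 CPM in TAC and 1.49 ± 0.600 CPM in sham (SD, n = 5 each). The Myh7 level of that heart, 2955 CPM, its Myh6 level, 39964 CPM, and its Myl2 level, 7898 CPM, lay inside the range of the other 5 hearts of its group, and its Myh7b level, 55.1 CPM, was the highest of them.

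Per length of transcript, the order of levels was the same in almost every heart. Levels were set as CPM per kilobase of the transcript with the longest coding sequence in GENCODE M21. In sham hearts Myl2 stood at 11926 ± 850 CPM per kilobase, Myh6 at 7405 ± 480, Myl3 at 4544 ± 388, Mybpc3 at 1379 ± 128 and Myh7 at 39.7 ± 8.55 (SD, n = 5). Myh7b followed at 5.64 ± 0.897 CPM per kilobase, Myl4 at 1.69 ± 0.682 and Myl7 at 0.300 ± 0.358. In TAC hearts Myl2 was at 9038 ± 2130, Myh6 at 4491 ± 1357, Myl3 at 3639 ± 743, Mybpc3 at 1572 ± 63.0 and Myh7 at 936 ± 413 CPM per kilobase (SD, n = 5). Each of these neighbours kept its order in all 21 libraries, down to Myh7 over Myh7b. Myh7b over Myl4 and Myl4 over Myl7 held in 20, the exception being PDE9A inhibitor heart 1 for both.

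**Figure D5:**
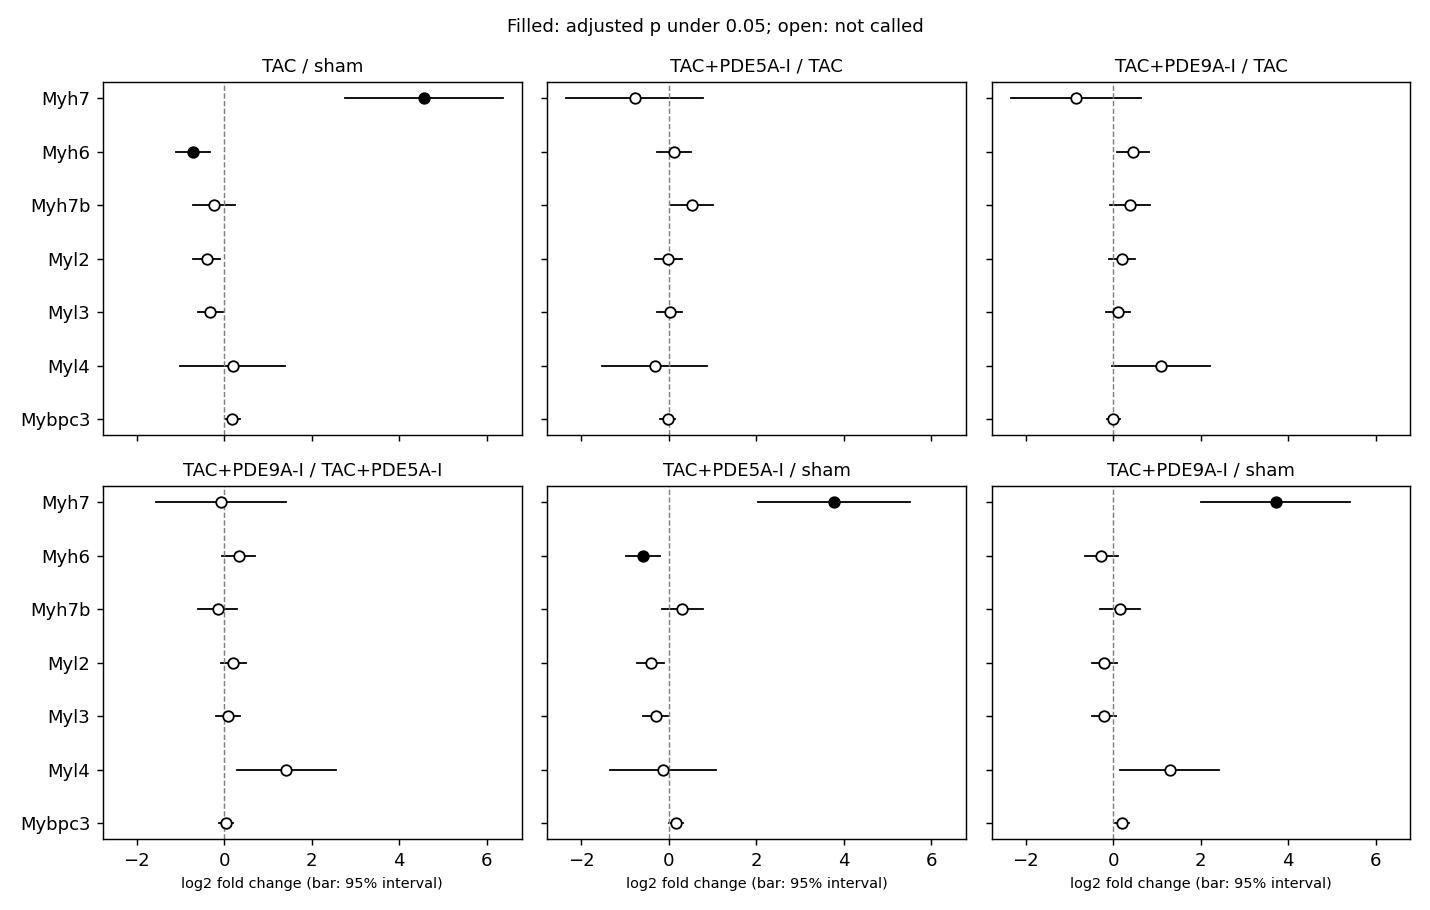
Log2 fold change of the 7 tested myosin genes in 6 comparisons, with the first-named group over the second, from edgeR's quasi-likelihood fit on all 21 libraries. Bars are 95% intervals and filled points have an adjusted p under 0.05. The filled points are Myh7 and Myh6 in TAC over sham and PDE5A inhibitor over sham, and Myh7 in PDE9A inhibitor over sham. The interval of Myh7 is the widest of the 7 genes in each comparison.

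Over all hearts with group means subtracted, more beta tended to go with less alpha and less of the ventricular light chains. After each group's mean of log2 CPM was subtracted, Pearson's r over the 21 libraries was -0.65 between Myh6 and Myh7. It was -0.51 between Myh7 and Myl2 and -0.53 between Myh7 and Myl3. Between Myh6 and Myl2 it was 0.90, between Myh6 and Myl3 0.81, and between Myl2 and Myl3 0.91. For Mybpc3 it was 0.14 with Myh6 and 0.01 with Myh7. The tendency did not hold in every group: PDE5A inhibitor heart 5 had the most Myh7 of its group (6931 CPM) and also the most Myl2 (7941 CPM) and Myl3 (3735 CPM). These values are descriptions over libraries that share the scaling, and counts of abundant genes within 1 library are not independent of each other.

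By the same measure, the 5 genes most like Myh7 among 12041 were Itih5 (r = 0.94), Krt18 (0.92), Frem1 (0.91), Spry1 (0.90) and Ccdc136 (0.90). Krt18 encodes a keratin and Spry1 an inhibitor of growth factor signalling. The 5 most like Myh6 were Plxnb1 (r = 0.98), Hrc (0.97), Atp2a2 (0.97), Nadk2 (0.96) and Hadh (0.96). Atp2a2 is the calcium pump of the sarcoplasmic reticulum, Hrc a calcium-binding protein in its lumen, and Hadh an enzyme of fatty acid oxidation. For Myl7 the 4 most alike were Psmb8 (r = 0.90), Irgm1 (0.86), Bst2 (0.85) and Uba7 (0.85), genes known from the interferon response, and without PDE9A inhibitor heart 1 these values were 0.66, 0.53, 0.56 and 0.57.

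Other heavy chains belong to skeletal, smooth and non-muscle cells. Of 11 such genes 5 had enough counts for the test in TAC against sham, where 12.2% of all genes were called higher and 13.0% lower. Myh8, the perinatal skeletal heavy chain, averaged 0.676 ± 0.192 CPM in TAC and 0.0413 ± 0.0543 CPM in sham (SD, n = 5 each). It passed the filter on low counts through the groups where it is high, so its difference is given as values only, and reads shared with the other skeletal heavy chain genes could not be separated here. Of the other 4 genes tested 2 rose and none fell: Myh10 by 0.57 (SE 0.18) and Myh9 by 0.49 (SE 0.16), both non-muscle heavy chains, beside the rise of fibroblast markers described above. Of the other light chains 1 of 7 tested rose and none fell, with a median of 0.25 beside -0.001 over all genes, and the riser was Myl12a, a non-muscle regulatory light chain, at 0.39 (SE 0.13).

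Of 8 genes for enzymes that act on light chains, 1 fell and 1 rose in TAC against sham, a share near the 25.2% of all genes called. Mylk4, a kinase of the light chain kinase family expressed in heart, stood at 41.5 ± 14.9 CPM in TAC and 139 ± 51.0 CPM in sham (SD, n = 5 each), a log2 fold change of -1.74 (SE 0.41, adjusted p = 0.00738 in edgeR's quasi-likelihood test). Ppp1r12a, the targeting subunit of myosin phosphatase, rose by 0.19 (SE 0.07, adjusted p = 0.0465). The other 6 of these 8 genes, including Mylk3, the cardiac light chain kinase, were not called. The list's median was -0.10.

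Of the thick filament and M-band partners 3 of 7 tested rose in TAC and none fell, where 12.2% of all genes were called higher, with a median log2 fold change of 0.24. The M-band proteins Myom2 and Myom1 rose by 0.57 (SE 0.14) and 0.24 (SE 0.08), and Mybpc2, the fast skeletal myosin-binding protein C, by 0.77 (SE 0.27). Mybpc2 averaged 49.4 ± 7.75 CPM in TAC and 29.0 ± 6.68 CPM in sham (SD, n = 5 each). Of 10 genes for myosin folding, modification and turnover 1 rose and 2 fell, with a median of -0.12, and this count is also near the 25.2% of all genes called. Unc45b, the chaperone that folds striated muscle myosin heads, fell to 211 ± 47.4 CPM in TAC, against 317 ± 24.6 CPM in sham (SD, n = 5 each; log2 fold change -0.59, SE 0.13). It was also the 1 gene of its list called lower with the PDE9A inhibitor against sham, at -0.45 (SE 0.12, adjusted p = 0.0450 in edgeR's quasi-likelihood test). In that comparison 1.65% of all genes were called lower. The genes called in either direction numbered 540, and 6 with ear tag series as a term. Whether the Unc45b call held under the alternatives was not examined. Ldb3, a Z-disc protein, fell by 0.25 (SE 0.09) and Smyd2, a methyltransferase, rose by 0.27 (SE 0.10).

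Among factors known to act on heavy chain genes, 3 of 11 tested fell and 1 rose in TAC, where 13.0% of all genes were called lower and 12.2% higher. The median log2 fold change was -0.02. Thrb, a thyroid hormone receptor, averaged 23.3 ± 5.02 CPM in TAC and 37.9 ± 2.65 CPM in sham, and Sox6, a transcription factor that represses slow-fibre genes in skeletal muscle, averaged 24.2 ± 1.75 CPM in TAC and 37.3 ± 1.06 CPM in sham (SD, n = 5 each). Their log2 fold changes were -0.70 (SE 0.14) and -0.62 (SE 0.10). Hdac9, a class II histone deacetylase, fell by 0.26 (SE 0.09), and Purb, a DNA- and RNA-binding protein reported to act on Myh6, rose by 0.18 (SE 0.06). The TEAD factors Tead1 and Tead4 and the receptor Thra were not called. Sox6 remained lower with both inhibitors against sham, at -0.55 (SE 0.10) for PDE5A and -0.34 (SE 0.10) for PDE9A. Of all genes, 7.80% and 1.65% were called lower in these comparisons. Whether the Sox6 calls held under the alternatives was not examined. In the comparisons of either inhibitor with TAC, no gene of any of these 6 lists was called.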

How the data were processed

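Total RNA from left ventricle was made into stranded libraries from 500 ng, per the labels' protocols. The authors deposited RSEM expected counts per gene symbol, not scaled between libraries, of which 19% carried decimals. The submitters' processing notes list mm10, RSEM 1.3.0, HISAT2 2.0.5, CASAVA 1.8.4 and DESeq2 1.18.1 but not how each was used. The sources used here do not give the annotation or the strand setting. Of the rows, 27 have symbols changed into dates, none of them a myosin gene.

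Expected counts were rounded, filtered with filterByExpr, scaled by TMM and fitted in 1 quasi-likelihood model over all 21 libraries with edgeR 4.0.16 in R 4.3.3, which was tested on simulated data. The Myh7 share was tested by exact permutation with SciPy 1.17.1. DESeq2 1.42.0, other scalings, filters and sample sets, ear tag series, replicate number and left-out libraries were alternatives. All 8 genes are named, up to 4 called genes per list by lowest adjusted p in TAC against sham, and the 5 most alike genes, of which 1 for Myl7 is not reported here. Members and lists were chosen with earlier results of these data known. Replicates are separate animals by ear tag, and no pair of libraries of the same group agreed within counting noise (lowest chi-square per degree of freedom 12.1).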

Additional observations from a re-analysis of the deposited data

Results flagged for a closer look

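Of 36 groups of values examined, 2 held a heart far from the others of its group, and chance flags about 1 in 20. PDE9A inhibitor heart 1 had 13.2 CPM of Myl4, where the next of the 6 hearts had 2.77 CPM, and the gap was 0.844 of the range against a critical value of 0.625. The same heart had 11.9 CPM of Myl7, where the next had 0.175 CPM, and the gap was 0.985 of the range. Sln had 68 counts in that heart and at most 5 in any other library.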

How the results depend on the processing

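Gene counts by comparison were unstable in the inhibitor comparisons. With DESeq2 they were 9 (PDE5A against TAC), 28 (PDE9A against TAC), 34 (PDE9A against PDE5A) and 1529 (PDE9A against sham). With no filter they were 0 for PDE9A against TAC and 329 for PDE9A against sham. With ear tag series as a term they were 1 for PDE5A against TAC, 0 for PDE9A against TAC, 276 for PDE5A against sham and 6 for PDE9A against sham. Fitted on only the 2 groups compared they were 0 for PDE5A against TAC, 0 for PDE9A against TAC, 0 for PDE9A against PDE5A, 3440 for PDE5A against sham and 17 for PDE9A against sham. Without PDE9A inhibitor hearts 1 and 4, the hearts with the most Rn45s, they were 0 against TAC, 2 against PDE5A and 18 against sham. The causes were not tested. With the replicate number as a block they were 1 for PDE5A against TAC, 0 for PDE9A against TAC, 0 for PDE9A against PDE5A and 2241 for PDE9A against sham. In that block the beta share differences against sham were 18.2, 9.72 and 9.45 percentage points for TAC, PDE5A and PDE9A, with exact sign-flip p = 0.0625 each (the smallest 5 pairs allow) and 0.0938 adjusted. The numbers do not pair the samples (mean correlation 0.053 over 30 same-numbered pairs, -0.225 to 0.564). The block brought Myl2 in TAC against sham to an adjusted p of 0.0143 and Myl3 to 0.0321.

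Within ear tag series the beta share differences were 15.8 (TAC against sham, adjusted permutation p 0.100), 15.8 and 3.53 (PDE5A and PDE9A against sham, 0.150 each) and 0.575 (PDE9A against PDE5A, a turned sign). For the 3 comparisons with sham the unadjusted exact permutation p was the smallest that 60, 10 and 12 permutations allow. Signs also turned for values that were called nowhere. With ear tag series as a term log2 values were 0.084 for Myl2 and 0.0043 for Myl4 in PDE5A against TAC, 0.47 for Myl4 in PDE5A against sham and 0.29 for Myh7 in PDE9A against PDE5A. With the replicate block they were 0.0061 for Myl2 in PDE5A against TAC, -0.0061 for Mybpc3 in PDE9A against TAC and 0.22 for Myh7 in PDE9A against PDE5A. Without PDE9A inhibitor hearts 1 and 4 Myl4 was -0.24 against TAC and -0.046 against sham.

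With 1 library left out, genes called ranged from 1781 to 4440 (TAC against sham), 0 to 2 (PDE5A against TAC), 0 to 46 (PDE9A against TAC), 1 to 8 (PDE9A against PDE5A), 580 to 2274 (PDE5A against sham) and 21 to 1814 (PDE9A against sham). Share differences ranged from 15.04 to 21.2, -11.5 to -5.32, -13.5 to -7.11, -4.97 to 0.857, 7.08 to 12.0 and 4.75 to 9.45 percentage points in the same order. Log2 values that turned sign ranged in PDE5A against TAC from -0.0093 to 0.28 (Myh6), -0.10 to 0.11 (Myl2) and -0.062 to 0.12 (Myl3), in PDE9A against TAC from -0.018 to 0.039 (Mybpc3), in PDE9A against PDE5A from -0.73 to 0.37 (Myh7) and in PDE5A against sham from -0.30 to 0.13 (Myl4). The Myh7 and Myh6 calls in TAC against sham held under every alternative run. Depth limits Myl7, which had 0 to 13 counts in all libraries but 1.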
